A study of Mus musculus with 12 samples.

Results

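A set of 10 genes of the NRF2 antioxidant response was followed in mouse bone marrow-derived macrophages (BMDMs) given LPS with or without a cell-penetrating inhibitor of Toll-like receptor (TLR) signaling. They were chosen by gene symbol from the 23959 genes in the deposited table: Nfe2l2, which encodes NRF2, and Keap1, Slc7a11, Gclc, Gclm, Gsr, Txnrd1, Prdx1, Srxn1 and Nqo1. This choice was made with earlier results of these data known, so the shares of all genes given beside them are a description. Wild-type (WT) bone marrow cells were differentiated over 7 days with M-CSF at 20 ng/ml, and RNA-seq was performed on 12 libraries in 4 groups of 3. Control cells received no treatment and were labelled 0 h. The other groups were stimulated for 2 h with LPS, a bacterial ligand of TLR4, either alone or after treatment with 1 μM or 10 μM cpTLR-i, a peptide that joins a motif of the TLR adaptor TIRAP to a cell-penetrating sequence. Because control and LPS also differ in time, treatment and time or handling cannot be told apart in any comparison with control. A group given the peptide without LPS was not analysed here.

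NRF2 is a transcription factor that KEAP1, an adaptor of a CUL3 ubiquitin ligase, holds at a low level by sending it for degradation. Oxidants and electrophiles modify cysteines of KEAP1, and NRF2 then accumulates and binds, with a small MAF protein, to antioxidant response elements near genes for glutathione synthesis, thioredoxin and peroxiredoxin chemistry, and quinone and heme detoxification. In macrophages the pathway is known for limiting oxidative damage and for restraining inflammatory gene expression. Since NRF2 is controlled mainly through its protein stability, its mRNA level is not a measure of its activity.

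Values are FPKM, fragments scaled to transcript length and to the mapped fragments of the library, so levels of different genes can be set side by side. Library sums of FPKM ranged from 403473 to 422014, and libraries of the same group correlated at 0.9952 to 0.9967. No read counts were used, so the depth behind a value is unknown and relative depths, estimated at 1.00 to 1.27, are rough. Summed over 7 macrophage markers the libraries held 14300 to 14800 FPKM in control and 11900 to 12700 in the other groups. Most of this sum was Lyz2, with a mean of 12012 FPKM in control, and single markers did not all follow it. Mean Adgre1 was 340 FPKM in control, 404 with LPS, 397 at 1 μM and 286 at 10 μM. Mean Mertk was 33.1 FPKM in control, 12.6 with LPS, 10.4 at 1 μM and 13.2 at 10 μM. Of 7 neutrophil markers, the defining marker Ly6g was at 0 to 0.0688 FPKM in the 12 libraries, while their sum ranged from 13.1 to 16.0 FPKM among control libraries. With LPS the sum ranged from 34.8 to 35.5, with 1 μM from 28.5 to 33.1 and with 10 μM from 40.5 to 54.1, mostly from S100a8 and S100a9. Markers of lymphoid, dendritic, mast, stromal and erythroid cells, each summed, did not exceed 1.07 FPKM in any library. The part of these shifts in the results that follow was not tested. In bulk RNA, fewer cells that express a gene and less RNA per cell cannot be told apart. Whether replicate libraries derive from different mice or different dishes is not given in the labels. A p-value here therefore reflects how much these libraries vary, which may be technical variation alone.

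The 10 genes did not move as a block. LPS raised 2 of them, Slc7a11 and Txnrd1, and lowered 1, Gclc (limma, adjusted p under 0.05 and a change over 1.5-fold), while 11.0% of the 12315 genes tested were called higher and 35.8% lower. With 10 μM cpTLR-i, Nfe2l2, Gclc and Srxn1 were higher than with LPS alone and Slc7a11 was lower, that is 3 and 1 of 10 against 21.5% and 9.44% of all genes. With 1 μM, 0 of the 10 genes were called in limma in either direction, against 0.495% higher and 0.625% lower among all genes, and 0 passed an unadjusted p under 0.05 with the same fold. When the fold was left out, 8 of the 10 genes were higher with 1 μM than with LPS and 0 lower at an adjusted p under 0.05 in limma, against 14.6% and 4.36% of all genes. All of these 8 changes were under 1.5-fold. With the fold left out in the same way, 4 of the 10 genes were higher and 4 lower with LPS than in control (17.9% and 68.5% of all genes), and 8 were higher and 1 lower with 10 μM than with LPS (56.2% and 17.7%).

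The median gene itself shifted between groups, so the same fold can mean more or less against it. Over all genes tested the median log2 difference was −0.39 for LPS against control and 0.22 for 10 μM against LPS, and over the 10 genes it was −0.04 and 0.39. For 1 μM against LPS the medians were 0.06 over all genes and 0.24 over the 10. The 2 comparisons of peptide with LPS share the LPS libraries, and those with control share the control libraries. When the libraries were scaled by median ratios, which brings the median gene to about 0, Nfe2l2 was also called higher with LPS than in control, and it was no longer called between 10 μM and LPS. Of all genes, 17.0% were then higher and 18.5% lower with LPS than in control, 13.1% and 12.4% for 10 μM against LPS, 10.7% and 11.3% for 10 μM against 1 μM, and 11.7% and 10.4% for 10 μM against control. Quantile normalization added Gclm to the genes called lower with LPS, for a split of 2 higher and 2 lower in place of 2 and 1, and to those called higher with 10 μM than with LPS. Of all genes, 14.7% were then higher and 19.6% lower with LPS than in control, and 13.3% and 11.6% for 10 μM against LPS. The signs given here are those of the deposited FPKM.

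**Figure D1:**
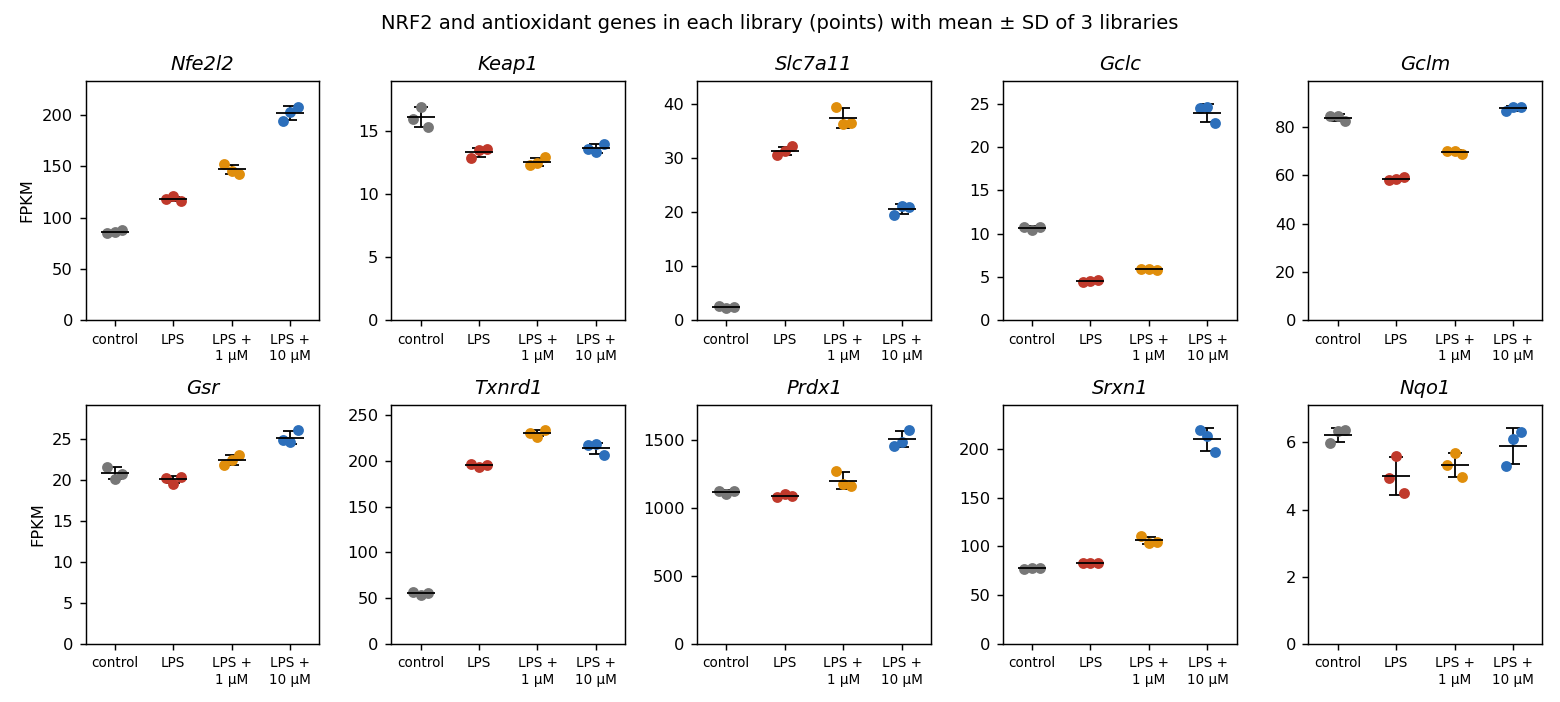
Level of each of the 10 genes in FPKM (vertical axes, each from 0) in the 4 groups, with a point for each library and bars for the mean ± SD of 3 libraries. Nfe2l2 is higher in each group in turn from control to 10 μM, Slc7a11 and Txnrd1 are high in all 3 groups given LPS, and Gclc and Srxn1 stand highest with 10 μM.

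The mRNA of NRF2 itself was higher in each group in turn from control to 10 μM. Nfe2l2 (chr2:75675513-75704663 on GRCm38.p6, the build of all positions given here) was at 85.1, 85.6 and 87.5 FPKM in control, 118, 121 and 116 with LPS, 152, 146 and 143 with LPS and 1 μM cpTLR-i, and 195, 203 and 208 with LPS and 10 μM cpTLR-i. No 2 groups overlapped, and the order was control, LPS, 1 μM and 10 μM. Lack of overlap was common in these libraries. Of the 12315 genes tested, 2255 lay higher and 8530 lower without overlap for LPS against control. These counts were 3714 and 1023 for 1 μM against LPS, and 7003 and 2236 for 10 μM against LPS. They were 6186 and 2325 for 10 μM against 1 μM, and 2723 and 6203 for 10 μM against control. The 10 genes gave, in the same order, 4 and 4, 8 and 0, 7 and 1, 7 and 2, and 8 and 1. Nfe2l2 was 1.71-fold higher with 10 μM than with LPS alone, a log2 difference of 0.77 ± 0.0332 SE, adjusted p = 1.8e-10 from limma with Benjamini-Hochberg adjustment, and 2.35-fold higher than in control. The 1.37-fold difference between LPS and control (log2 0.46) and the 1.24-fold difference between 1 μM and LPS (log2 0.31) did not reach the fold required for a call. With median-ratio scaling the log2 difference of Nfe2l2 was 0.88 for LPS against control, which is a call, and 0.53 for 10 μM against LPS, which is not.

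Keap1 (chr9:21229730-21239332), whose protein is the inhibitor of NRF2, varied little. It was at 16.0, 16.9 and 15.4 FPKM in control, 12.9, 13.5 and 13.6 with LPS, 12.3, 12.5 and 12.9 with LPS and 1 μM cpTLR-i, and 13.6, 13.3 and 14.0 with LPS and 10 μM cpTLR-i. The control libraries were the highest and did not overlap with the rest, while LPS overlapped with both peptide groups. LPS against control gave a log2 difference of −0.27 (95% interval −0.36 to −0.17), 1 μM against LPS −0.08 (−0.17 to 0.01) and 10 μM against LPS 0.03 (−0.06 to 0.13), with no call. The sign of LPS against control changed with median-ratio scaling, to 0.15, and that of 10 μM against LPS became −0.20, or −0.089 with quantile normalization. Within a library the ratio of Nfe2l2 to Keap1 FPKM (mean ± SD of 3 libraries) was 5.36 ± 0.321 in control, 8.89 ± 0.327 with LPS, 11.7 ± 0.642 at 1 μM and 14.8 ± 0.476 at 10 μM. A single scaling factor for a library cancels in this ratio, while quantile normalization can change it. The ratio did not overlap between groups, and how common that is among ratios of other genes was not computed.

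NRF2 and AP-1 factors bind related DNA sequences, so the bases upstream of the genes were searched for both. The sequences shown are those in which a motif was found. They run 5′ to 3′ on the gene's strand and end at the base before a transcription start, and were taken from RefSeq on GRCm38.p6. Of the 10 genes, 8 were matched to 10 such windows (Txnrd1 has several starts), and Gclc and Gsr were not matched. Capitals mark TGACNNNGC, the core of the antioxidant response element, and TGANTCA, the AP-1 site with any middle base, each read on both strands. A site TGACTCAGC is both at the same time.
Nfe2l2, chr2:75704664-75704913, minus strand: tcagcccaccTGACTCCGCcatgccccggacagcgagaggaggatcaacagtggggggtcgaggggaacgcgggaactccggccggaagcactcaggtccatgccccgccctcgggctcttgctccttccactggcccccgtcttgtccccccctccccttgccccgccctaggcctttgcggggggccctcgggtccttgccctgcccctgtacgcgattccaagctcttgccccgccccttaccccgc
Gclm, chr3:122245307-122245486, plus strand: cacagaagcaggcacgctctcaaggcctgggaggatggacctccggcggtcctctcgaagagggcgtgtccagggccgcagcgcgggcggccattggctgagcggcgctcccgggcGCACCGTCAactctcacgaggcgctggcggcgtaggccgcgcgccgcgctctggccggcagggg
Txnrd1, chr10:82858956-82859205, plus strand: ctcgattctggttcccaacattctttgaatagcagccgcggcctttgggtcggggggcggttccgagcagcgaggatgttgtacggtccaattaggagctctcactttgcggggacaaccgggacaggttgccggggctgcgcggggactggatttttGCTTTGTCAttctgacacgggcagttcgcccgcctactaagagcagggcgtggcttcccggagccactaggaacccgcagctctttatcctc
Prdx1, chr4:116685349-116685598, plus strand: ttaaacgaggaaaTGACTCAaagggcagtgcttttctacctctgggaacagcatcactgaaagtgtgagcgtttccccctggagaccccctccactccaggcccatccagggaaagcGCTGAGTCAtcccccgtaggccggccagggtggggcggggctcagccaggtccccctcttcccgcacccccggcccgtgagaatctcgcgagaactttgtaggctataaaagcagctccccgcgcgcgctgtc
Srxn1, chr2:152105274-152105523, plus strand: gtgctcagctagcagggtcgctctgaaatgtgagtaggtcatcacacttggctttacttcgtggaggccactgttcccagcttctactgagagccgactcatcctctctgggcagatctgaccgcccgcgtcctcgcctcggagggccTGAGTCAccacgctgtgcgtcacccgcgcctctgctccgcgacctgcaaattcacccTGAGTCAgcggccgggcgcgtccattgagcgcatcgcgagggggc
The antioxidant response core was found in 4 of the 10 windows, upstream of Nfe2l2, Gclm, Prdx1 and 1 of the starts of Txnrd1, and in 10.2% of all 32851 promoters of the same length. Upstream of Nfe2l2 it reads TGACTCCGC and begins 240 bases before the start. In the other genes it is read on the opposite strand. The AP-1 site, as TGAGTCA or TGACTCA, was found upstream of Srxn1, at 102 and 45 bases before the start, and of Prdx1. The looser TGANTCA, with any middle base, was found in 6.75% of all promoters. Only Prdx1 held the combined TGACTCAGC, read here as GCTGAGTCA, which 0.39% of all promoters hold. No match was found upstream of Keap1, Slc7a11 or Nqo1, which says only that these letters are not within 250 bases before the starts used. For Gclm 250 bases were searched as for the others, and the 180 bases before the first start of the gene are printed. The matches are a description of letters, and binding was not measured.

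Among genes of cystine uptake and glutathione synthesis, Slc7a11 (chr3:50364936-50499087) encodes the light chain of the cystine/glutamate antiporter, which brings in cystine for glutathione. It was at 2.61, 2.19 and 2.50 FPKM in control, 30.6, 31.3 and 32.2 with LPS, 39.5, 36.3 and 36.6 with LPS and 1 μM cpTLR-i, and 19.4, 21.2 and 20.9 with LPS and 10 μM cpTLR-i. Control was far below the other groups, and 10 μM lay between control and LPS, with no overlap between any groups. LPS raised Slc7a11 12.9-fold, a log2 difference of 3.56 ± 0.0588 SE, adjusted p = 5.5e-15 in limma, the largest change among the 10 genes. With 10 μM it was 1.53-fold lower than with LPS alone (log2 difference of −0.61 ± 0.0588 SE, adjusted p = 7.3e-07) and still 8.44-fold above control. The call between 10 μM and LPS was close to the required fold, and without replicate 1 of the 10 μM group the log2 difference was −0.57 and the call was lost. The 1 μM libraries held 1.19-fold the level with LPS alone (log2 0.25), which is not a call, and 1.82-fold the level with 10 μM, which is.

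Gclc (chr9:77754535-77794489) encodes the catalytic subunit of glutamate-cysteine ligase, the rate-limiting enzyme of glutathione synthesis, and its level was lower, not higher, with LPS. It was at 10.8, 10.4 and 10.8 FPKM in control, 4.43, 4.57 and 4.61 with LPS, 5.93, 5.91 and 5.83 with LPS and 1 μM cpTLR-i, and 24.5, 24.7 and 22.8 with LPS and 10 μM cpTLR-i. The LPS libraries were the lowest, the 10 μM libraries the highest, and no groups overlapped. LPS lowered Gclc 2.35-fold (log2 difference of −1.19 ± 0.0418 SE, adjusted p = 1.4e-11 in limma), and with 10 μM it was 5.29-fold higher than with LPS alone (log2 difference of 2.34 ± 0.0418 SE, adjusted p = 3.6e-14). This was the largest difference of the 10 genes between peptide and LPS, and Gclc with 10 μM also stood 2.25-fold above control and 4.07-fold above 1 μM, both calls. The 1 μM libraries were 1.30-fold above LPS (log2 0.36, 95% interval 0.27 to 0.45), under the fold required.

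Gclm (chr3:122245487-122267215) encodes the modifier subunit of the same ligase and followed the order of Gclc in a narrower range. It was at 84.6, 84.8 and 82.4 FPKM in control, 58.0, 58.3 and 59.2 with LPS, 69.9, 70.1 and 68.9 with LPS and 1 μM cpTLR-i, and 86.5, 88.2 and 88.5 with LPS and 10 μM cpTLR-i. Again no groups overlapped, with LPS lowest, then 1 μM, control and 10 μM. Its difference between 10 μM and LPS was 1.4998-fold, a log2 difference of 0.58 ± 0.0257 SE, adjusted p = 2.3e-10, just inside the 1.5-fold bound (log2 0.585) and so not a call. Without LPS replicate 3 or 10 μM replicate 1 the log2 difference was 0.59 and Gclm was called, as it was with quantile normalization at 0.64. LPS against control gave a log2 difference of −0.52, also not a call, and −0.62 with quantile normalization, which is. The ratio of Gclc to Gclm FPKM in a library (mean ± SD of 3 libraries) was 0.127 ± 0.00421 in control, 0.0775 ± 0.00105 with LPS, 0.0846 ± 0.000273 at 1 μM and 0.274 ± 0.0139 at 10 μM. The ratio was lowest with LPS and highest with 10 μM, and its libraries did not overlap between groups. How common that is among ratios of other genes was not computed.

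**Figure D2:**
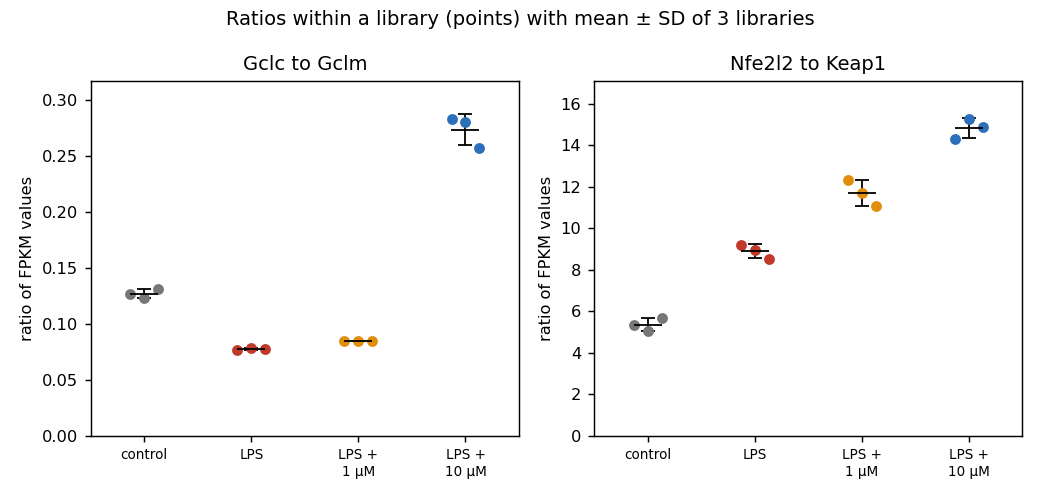
Ratio of Gclc to Gclm FPKM (left) and of Nfe2l2 to Keap1 FPKM (right) within each library (points), with the mean ± SD of 3 libraries in each of the 4 groups and vertical axes from 0. The Gclc ratio is 0.0775 with LPS and 0.274 with 10 μM, and the Nfe2l2 ratio goes from 5.36 in control to 14.8 with 10 μM.

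Gsr (chr8:33653238-33698162) encodes glutathione reductase, which restores reduced glutathione with NADPH. It was at 21.6, 20.2 and 20.7 FPKM in control, 20.3, 19.6 and 20.4 with LPS, 21.9, 22.4 and 23.1 with LPS and 1 μM cpTLR-i, and 24.9, 24.6 and 26.1 with LPS and 10 μM cpTLR-i. Control and LPS overlapped, and the 1 μM and 10 μM libraries each lay above both. None of its differences was a call: the log2 difference was −0.05 for LPS against control (95% interval −0.14 to 0.03, 0.37 with median-ratio scaling and 0.044 with quantile normalization), 0.16 for 1 μM against LPS and 0.32 for 10 μM against LPS (0.24 to 0.41).

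Among genes of the thioredoxin and peroxiredoxin system, Txnrd1 (chr10:82833951-82897724) encodes the cytosolic thioredoxin reductase, which passes electrons from NADPH to thioredoxin. It was at 56.9, 53.3 and 55.5 FPKM in control, 196, 193 and 196 with LPS, 231, 227 and 233 with LPS and 1 μM cpTLR-i, and 217, 218 and 207 with LPS and 10 μM cpTLR-i. The control libraries stood far below all others, and 1 μM was the highest group, with no overlap between any groups. LPS raised Txnrd1 3.53-fold (log2 difference of 1.82 ± 0.0310 SE, adjusted p = 7.6e-15 in limma). Unlike Slc7a11 it was not lower with 10 μM than with LPS: the log2 difference was 0.13 (95% interval 0.07 to 0.20), not a call, and −0.11 with median-ratio scaling. With 10 μM it remained 3.87-fold above control.

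Prdx1 (chr4:116685599-116700000), whose product is a peroxiredoxin that reduces hydrogen peroxide with electrons from thioredoxin, was by far the most abundant of the 10. It was at 1124, 1105 and 1129 FPKM in control, 1081, 1106 and 1090.3 with LPS, 1273, 1174 and 1162 with LPS and 1 μM cpTLR-i, and 1460.0, 1491 and 1574 with LPS and 10 μM cpTLR-i. Control and LPS overlapped, and the 10 μM libraries were the highest without overlap. The log2 difference was −0.04 for LPS against control (0.39 with median-ratio scaling), 0.14 for 1 μM against LPS and 0.46 for 10 μM against LPS (95% interval 0.38 to 0.54), none a call. Against control, 10 μM gave 0.43, and 0.61 with median-ratio scaling, which is a call. RefSeq lists a pseudogene of Prdx1, and the spans of Gclm, Gsr, Txnrd1 and Prdx1 overlap other annotated genes, so reads shared with these cannot be told apart here.

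Srxn1 (chr2:152105524-152111376) encodes sulfiredoxin, which repairs peroxiredoxins that hydrogen peroxide has over-oxidized, and it was called between 10 μM and each other group but not between LPS and control. It was at 76.8, 77.9 and 78.1 FPKM in control, 82.6, 82.7 and 83.0 with LPS, 110.3, 103 and 105 with LPS and 1 μM cpTLR-i, and 219, 214 and 197 with LPS and 10 μM cpTLR-i. The groups did not overlap and followed the order control, LPS, 1 μM and 10 μM, the same order as Nfe2l2. LPS against control gave only 1.07-fold (log2 0.09, 95% interval 0.01 to 0.17), not a call. With 10 μM, Srxn1 was 2.54-fold higher than with LPS alone (log2 difference of 1.34 ± 0.0381 SE, adjusted p = 2.7e-12 in limma), 1.98-fold higher than with 1 μM and 2.70-fold higher than in control. The 1 μM libraries were 1.28-fold above LPS, under the fold required. The 2 AP-1 sites printed above lie upstream of this gene, and AP-1 sites also lie upstream of Prdx1, which had no call in deposited FPKM. Whether such sites bear on these levels was not tested.

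Nqo1 (chr8:107388225-107403205), which encodes a quinone reductase and is widely used as a reporter of NRF2 activity, was low and nearly flat. It was at 5.97, 6.33 and 6.36 FPKM in control, 4.94, 5.61 and 4.48 with LPS, 5.34, 5.69 and 4.98 with LPS and 1 μM cpTLR-i, and 5.29, 6.10 and 6.31 with LPS and 10 μM cpTLR-i. Every group overlapped with its neighbor in the order LPS, 1 μM, 10 μM and control, although control and LPS did not overlap with each other. The log2 difference was −0.30 for LPS against control (95% interval −0.48 to −0.12), 0.09 for 1 μM against LPS (−0.09 to 0.27), 0.23 for 10 μM against LPS (0.05 to 0.41) and −0.08 for 10 μM against control (−0.26 to 0.10), with no call. These intervals lie within 1.5-fold in either direction. The sign for LPS against control was positive with quantile normalization (0.11) and median-ratio scaling (0.10), and for 10 μM against LPS it was negative with both (−0.015 and −0.005). For 10 μM against control it was positive with both (0.093 and 0.096).

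**Figure D3:**
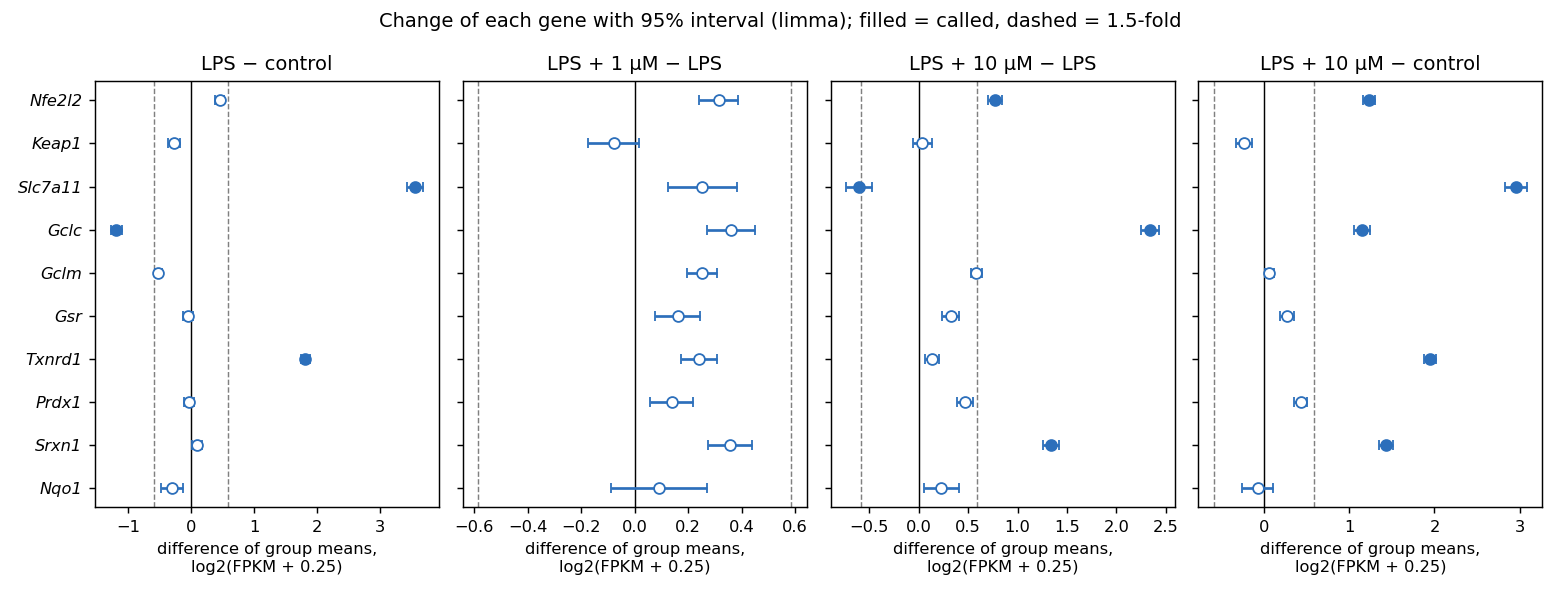
Difference of group means on the log2(FPKM + 0.25) scale (horizontal axes, which differ in range between panels) with its 95% interval from limma, for each of the 10 genes in 4 comparisons. Filled points are calls and dashed lines mark 1.5-fold, so that 3 genes are called for LPS against control, 0 for 1 μM against LPS, 4 for 10 μM against LPS and 5 for 10 μM against control.

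The concentrations differed most in Gclc, Srxn1 and Slc7a11. Between 10 μM and 1 μM, Gclc and Srxn1 were called higher and Slc7a11 lower, that is 2 and 1 of 10 genes against 15.9% and 9.05% of all genes tested, and the log2 differences were 1.98, 0.98 and −0.86. Txnrd1 and Slc7a11 were the genes with their highest level at 1 μM, and only for these did the group means go down from 1 μM to 10 μM in FPKM; with median-ratio scaling those of Keap1 (−0.06), Gsr (−0.01) and Nqo1 (−0.03) did too. With the fold left out, 7 of the 10 genes were higher and 2 lower with 10 μM than with 1 μM, against 49.7% and 18.1% of all genes. Set against untreated cells, 5 of the 10 genes were called higher with LPS and 10 μM (Nfe2l2, Slc7a11, Gclc, Txnrd1 and Srxn1) and 0 lower, where 8.57% of all genes tested were higher and 17.1% lower. The 0 lower calls were also 0 at an unadjusted p under 0.05 with the same fold, and with the fold left out 8 genes were higher and 1, Keap1, lower at an adjusted p under 0.05 in limma, against 21.7% and 49.7% of all genes. The median log2 difference in this comparison was 0.79 over the 10 genes and −0.17 over all. Since the 10 genes were chosen with earlier results of these data known, this contrast is no test of the set.

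For the 3 genes called between LPS and control, the share of the LPS response that remained with peptide was calculated on group means, as the difference between peptide and control over the difference between LPS and control. At 10 μM, 62.5% of the response of Slc7a11 remained, or 83.0% on the log2 scale and 52.5% with median-ratio scaling. At 1 μM the same gene was at 121%. For Txnrd1 the share was 125% at 1 μM and 113% at 10 μM, and the latter was 90.7% with median-ratio scaling. The fall of Gclc was at 77.8% with 1 μM, while with 10 μM the share was −218%, since Gclc passed its control level in the opposite direction (−97.0% on the log2 scale and −362% with median-ratio scaling).

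The 10 genes also differed in how alike their patterns were over the 12 libraries. Slc7a11 had the widest range of group means, 3.82 on the log2 scale, followed by Gclc at 2.34 and Txnrd1 at 2.06, and Nqo1 had the narrowest at 0.30. Pearson's r of log2(FPKM + 0.25) was 0.978 for Slc7a11 with Txnrd1, 0.967 for Prdx1 with Srxn1, 0.921 for Gsr with Prdx1, 0.915 for Nfe2l2 with Srxn1 and 0.904 for Gclc with Gclm. Keap1 ran opposite to Slc7a11, with r of −0.949. All these r values are of deposited FPKM, in which Keap1 was lower with LPS than in control (log2 −0.27). That difference was 0.15 with median-ratio scaling, and r was not computed with other scalings. Libraries of 1 group share their treatment, so these values describe 4 group levels more than 12 points, and no test was made. Slc7a11 and Txnrd1 set control apart from all groups given LPS, and Gclc, Gclm, Gsr, Prdx1, Srxn1 and Nfe2l2 were highest at 10 μM.

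**Figure D4:**
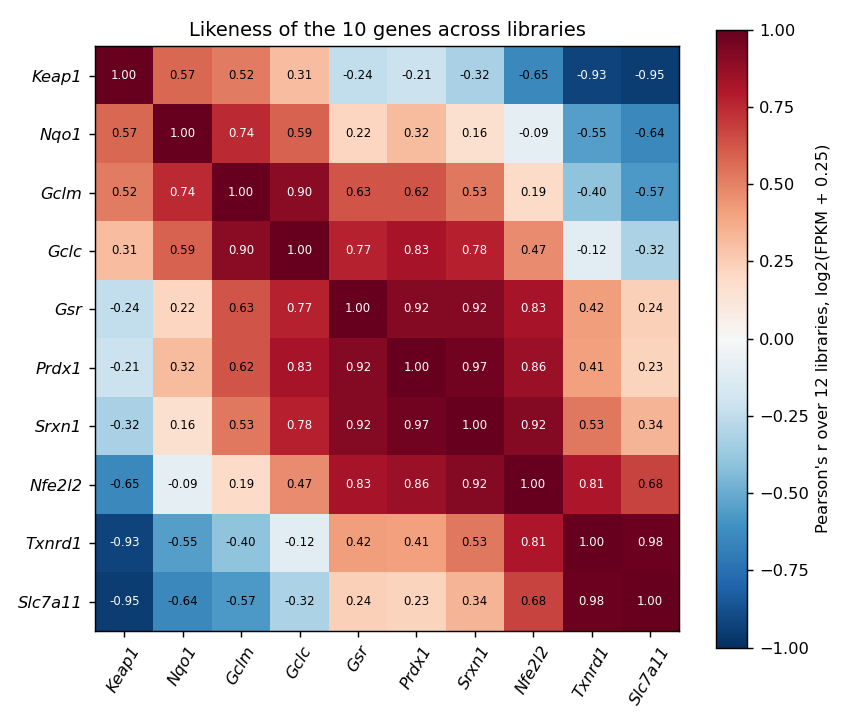
Pearson's r of log2(FPKM + 0.25) over the 12 libraries for each pair of the 10 genes, with red for positive and blue for negative values and the value printed in each cell. The highest value between different genes is 0.978 (Slc7a11 with Txnrd1) and the lowest −0.949 (Keap1 with Slc7a11). Values are of deposited FPKM with no other scaling.

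The whole table was then searched for genes with like patterns, among the 9659 tested genes that averaged 2 FPKM or more in any group and had no symbol of the Gm or Rik kind. Those closest to Nfe2l2 by r over the 12 libraries were Btg1 (0.997), Ddx21 (0.995) and Plk2 (0.992). Mean FPKM of Plk2, a polo-like kinase, was 40.4 in control, 68.9 with LPS, 95.3 at 1 μM and 199 at 10 μM, the same order as Nfe2l2. Keap1 was closest to Bet1 (0.967), LOC115487448 (0.956), which is named by its locus number alone, and Stn1 (0.955), which were all highest in control. This search also used deposited FPKM alone, and was not repeated with other scalings. Slc7a11 was closest to Itga5 (0.999), an integrin subunit, and to Cdk6 (0.999) and Pdpn (0.999). Itga5 was at 38.7 FPKM in control, 164 with LPS, 184 at 1 μM and 128 at 10 μM.

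Other genes of NRF2 control and redox chemistry were taken from a list of 90 genes, of which 88 were in the table, 2 (Gsta1 and Gsta2) were not analysed here, and 82 passed the filter. LPS lowered 20 and raised 8 of the 82, with a median log2 difference of −0.34, close to the −0.39 of all genes, of which 11.0% were higher and 35.8% lower. With median-ratio scaling the split was 12 higher and 5 lower, against 17.0% and 18.5% of all genes. With 10 μM, 9 were higher and 2 lower than with LPS (8 and 6 with median-ratio scaling), where 21.5% of all genes were higher and 9.44% lower (13.1% and 12.4% with that scaling). Compared with untreated cells, 10 μM gave 9 higher and 12 lower genes (13 and 5 with median-ratio scaling), against 8.57% and 17.1% of all genes (11.7% and 10.4%). With 1 μM 0 were called in limma, where 0.495% of all genes were higher and 0.625% lower. At an unadjusted p under 0.05 with the fold 0 passed, against 0.625% and 0.682% of all genes. With no fold, 20 were higher and 1 lower at an adjusted p under 0.05 in limma, against 14.6% and 4.36% of all genes. The calls between 10 μM and LPS were in the thioredoxin system (3 higher, 1 lower of 14), in detoxification and heme (4 higher, 1 lower of 23), in the group listed as glutathione synthesis (1 higher of 4) and among small MAF partners (1 higher of 3). The 1 gene of glutathione synthesis was Chac1, named here after its values were seen, whose product breaks glutathione down. It was at 0.214 ± 0.0378 FPKM in control, 0.0900 ± 0.0195 with LPS, 0.119 ± 0.0609 at 1 μM and 1.78 ± 0.206 at 10 μM, with a log2 difference of 2.57 between 10 μM and LPS. None of the 7 regulators, 22 genes of glutathione use and 9 of NADPH supply differed by over 1.5-fold between 10 μM and LPS, but median-ratio scaling gave 1 lower call in each of these roles (Fbxw11, Gstk1 and Idh1), and quantile normalization 1 (Gstk1). Both scalings left 2 higher calls in the thioredoxin system and added Mafk as a lower call among the partners. The roles were not tested against each other.

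**Figure D5:**
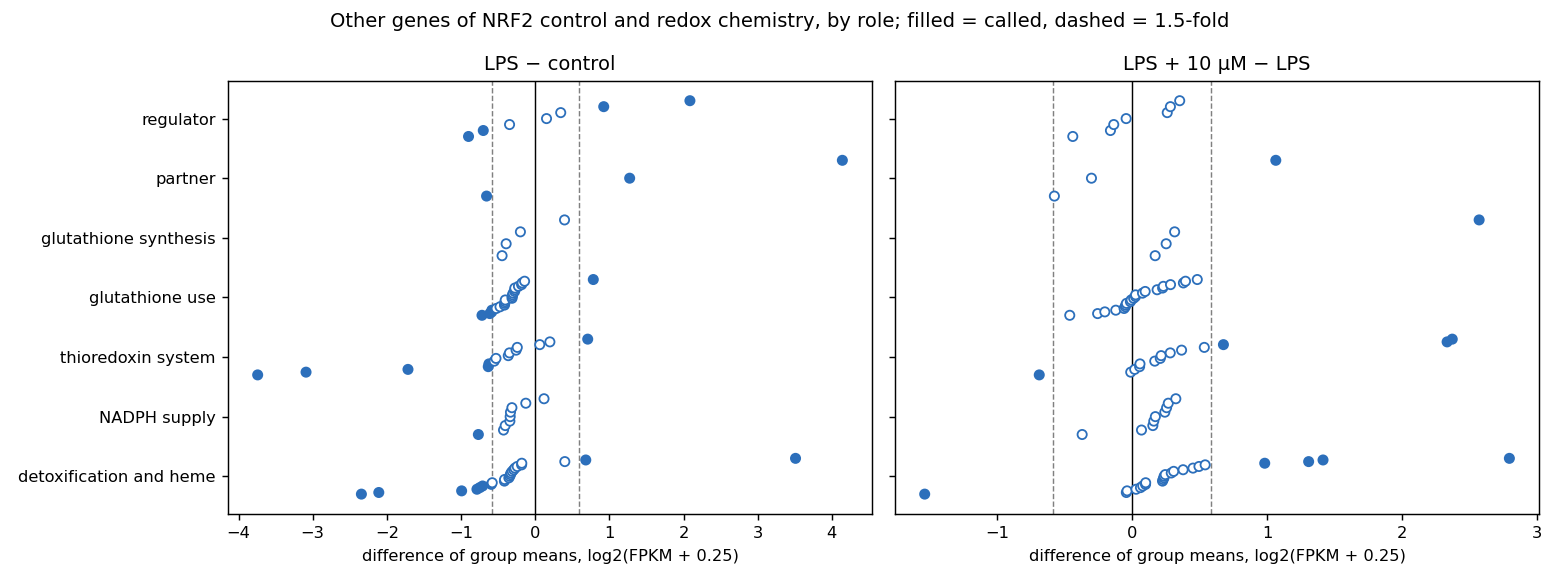
Difference of group means on the log2(FPKM + 0.25) scale for the 82 other genes tested, 1 point a gene, in rows by role, for LPS against control (left) and LPS with 10 μM cpTLR-i against LPS (right). Filled points are calls and dashed lines mark 1.5-fold. Of the 82 genes, 8 are called higher and 20 lower on the left, and 9 higher and 2 lower on the right, where the filled point in the row of glutathione synthesis is Chac1, which encodes an enzyme that degrades glutathione.

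Small MAF proteins, the DNA-binding partners of NRF2, split. Maff was at 0.757 ± 0.00851 FPKM in control, 17.5 ± 0.855 with LPS, 15.3 ± 1.61 at 1 μM and 14.2 ± 1.19 at 10 μM (mean ± SD, n = 3 in each group), and LPS raised it 23.2-fold. The level with 10 μM differed from LPS by log2 −0.30, not a call. Mafk was at 8.45 ± 0.210 FPKM in control, 20.8 ± 1.61 with LPS, 18.1 ± 0.450 at 1 μM and 13.8 ± 0.402 at 10 μM, also raised by LPS (2.46-fold). Its log2 difference between 10 μM and LPS was −0.58, just inside the fold required, and it was called lower with median-ratio scaling (−0.82), with quantile normalization (−0.66), with TPM (−0.61), and without LPS replicate 1 (−0.62), LPS replicate 2 (−0.59) or 10 μM replicate 1 (−0.60). Mafg went the opposite way, at 17.7 ± 0.394 FPKM in control, 11.1 ± 1.13 with LPS, 12.7 ± 0.651 at 1 μM and 23.5 ± 0.564 at 10 μM. It was lower with LPS than in control (log2 −0.66, but −0.24 and no call with median-ratio scaling, and −0.58 and no call without LPS replicate 2) and 2.11-fold higher with 10 μM than with LPS.

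Of the regulators of NRF2, Sqstm1 encodes p62, an autophagy receptor that binds KEAP1, and was the most abundant at 333 ± 4.61 FPKM in control, 1415 ± 28.1 with LPS, 1799.8 ± 42.8 at 1 μM and 1289 ± 110.3 at 10 μM. LPS raised Sqstm1 4.25-fold, and 10 μM differed from LPS by log2 −0.14, not a call. Bach1, a repressor that competes for antioxidant response elements, was at 21.6 ± 0.842 FPKM in control, 13.2 ± 0.925 with LPS, 11.6 ± 0.487 at 1 μM and 16.9 ± 1.15 at 10 μM. It was lower with LPS than in control (log2 −0.70), but not called with median-ratio scaling (−0.28) or quantile normalization (−0.58). Fbxw11 and Btrc encode β-TrCP proteins, which direct NRF2 to degradation independently of KEAP1. Fbxw11 was at 17.8 ± 1.13 FPKM in control, 33.9 ± 1.44 with LPS, 34.4 ± 0.610 at 1 μM and 24.9 ± 0.610 at 10 μM. Btrc was much lower, at 2.89 ± 0.126 FPKM in control, 1.43 ± 0.0421 with LPS, 1.40 ± 0.0766 at 1 μM and 1.80 ± 0.129 at 10 μM. LPS raised Fbxw11 1.91-fold and lowered Btrc (log2 −0.90), the latter not a call with median-ratio scaling (−0.52) or quantile normalization (−0.36). With 10 μM against LPS neither was called, at log2 −0.44 for Fbxw11, which was called lower with median-ratio scaling (−0.68), and 0.28 for Btrc, which was at −0.01 with quantile normalization.

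The remaining regulators had no call in these comparisons. Cul3, the ligase scaffold that KEAP1 uses, was at 16.9 ± 0.782 FPKM in control, 21.5 ± 0.174 with LPS, 22.1 ± 0.540 at 1 μM and 20.8 ± 1.56 at 10 μM, and its log2 difference of 0.34 between LPS and control was a call only with median-ratio scaling (0.76). Rbx1, the RING subunit of that ligase, was at 24.4 ± 0.215 FPKM in control, 19.2 ± 0.0857 with LPS, 19.7 ± 0.527 at 1 μM and 23.0 ± 1.58 at 10 μM, with a log2 difference of −0.35 between LPS and control, which turned to 0.07 with median-ratio scaling. Nfe2l1, which encodes the related factor NRF1, was at 55.1 ± 0.986 FPKM in control, 61.3 ± 1.48 with LPS, 70.2 ± 0.445 at 1 μM and 54.7 ± 2.35 at 10 μM, highest with 1 μM. Bach2 did not pass the filter, with a highest value of 0.199 FPKM.

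Effector genes outside the 10 that changed most included the sestrins, stress-inducible proteins that restrain mTORC1 and support peroxiredoxin function. Sesn1 was at 72.5 ± 1.67 FPKM in control, 5.18 ± 0.205 with LPS, 6.36 ± 0.162 at 1 μM and 28.0 ± 3.79 at 10 μM. LPS lowered it 14.0-fold, and with 10 μM it was 5.41-fold higher than with LPS. Sesn2 was at 10.7 ± 0.352 FPKM in control, 1.04 ± 0.0788 with LPS, 1.60 ± 0.0994 at 1 μM and 6.22 ± 0.312 at 10 μM. It was lowered 10.3-fold by LPS and was 6.01-fold higher with 10 μM than with LPS. Osgin1, an oxidative stress-induced growth inhibitor, was at 6.87 ± 0.462 FPKM in control, 1.15 ± 0.0706 with LPS, 1.44 ± 0.134 at 1 μM and 9.48 ± 0.541 at 10 μM. Like Gclc, it was lower with LPS than in control, by 5.97-fold, and higher with 10 μM than with LPS, by 8.23-fold. Hmox1, heme oxygenase 1, which breaks down heme, was at 243 ± 1.77 FPKM in control, 148 ± 0.263 with LPS, 175 ± 4.09 at 1 μM and 396 ± 14.5 at 10 μM. It was 2.67-fold higher with 10 μM than with LPS and 1.63-fold higher than in control, and its lower level with LPS than in control (log2 −0.71) was not a call with median-ratio scaling (−0.29). Sod2, which encodes the mitochondrial superoxide dismutase, was at 13.9 ± 0.653 FPKM in control, 161 ± 1.54 with LPS, 167 ± 4.20 at 1 μM and 55.1 ± 2.02 at 10 μM. LPS raised Sod2 11.6-fold, and with 10 μM it was 2.91-fold lower than with LPS alone.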

How the data were processed

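RNA-seq of BMDMs was analysed in 12 libraries, 3 in each of 4 groups taken from the sample labels. As named in the processing notes of the submitters, reads were aligned with HISAT2 to mm10, and StringTie gave the FPKM values the authors deposited. The deposited TPM values come from the same steps. The strandedness of the library kit is named differently in the labels and in the study's methods. No read counts were used, so the precision behind a value rests on the spread between libraries. Columns of no sample numbered 0.

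Values were taken as log2(FPKM + 0.25), so fold changes of low genes are understated, and the fold given beside a gene is the ratio of mean FPKM. The 12315 genes with at least 0.5 FPKM in 3 of 12 libraries were tested, all 10 genes among them. A single linear model over the 12 libraries was fitted in R 4.3.3 using limma 3.58.1, with a trended prior in eBayes. Contrasts were two-sided, and p was adjusted by Benjamini-Hochberg over every gene tested. A call needed an adjusted p under 0.05 and a change over 1.5-fold (log2 0.585). The fit was tested on simulated data. Python 3.11.15 with pandas 2.3.3 produced the tables, and matplotlib 3.10.9 the plots. Positions and promoters were those of RefSeq on GRCm38.p6, in which 23897 of 23959 gene IDs were found.

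The 10 genes, the wider list of 90 genes and the marker lists were chosen with earlier results of these data known. All 10 genes are named. From the wider list, regulators and partners are named, with up to 5 called genes of largest change in each of the first 3 comparisons, where libraries did not overlap and either group's mean reached 2 FPKM. For Nfe2l2, Keap1 and the gene with the widest range, the 3 genes of highest Pearson's r are named, leaving out symbols of the Gm or Rik kind. The fit was repeated on TPM, with pseudocounts of 0.1 or 1, without the filter or with a filter at 1 FPKM, after quantile normalization or median-ratio scaling, on the compared groups alone, with a replicate block and without each library in turn. Calls were also made on the unadjusted p and with no fold minimum.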

Additional observations from a re-analysis of the deposited data

How the results depend on the processing

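The 10 genes were recomputed in 5 comparisons under 24 alternatives, which gave 1200 values. Of these 1147 kept their direction and their side of the threshold, 34 passed it only under the alternative, 2 no longer passed it and 17 changed sign. The cause was not tested. No gene that was called changed sign. By construction the log2 difference stays the same with the replicate block, on the compared groups alone and without the trended prior. The same holds for the unadjusted p and no fold minimum, so no sign could change under these alternatives. Without the fold minimum, by construction, more genes were counted: 4 higher and 4 lower for LPS against control, 8 higher for 1 μM against LPS, 8 higher and 1 lower for 10 μM against LPS, 7 higher and 2 lower for 10 μM against 1 μM, and 8 higher and 1 lower for 10 μM against control. With quantile normalization 2 genes in place of 1 were lower with LPS than in control. Leaving out 1 library gave 3 to 4 genes higher and 0 to 1 lower for 10 μM against LPS, and in the other comparisons the counts were those with all libraries.

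The changes of sign came with the 2 other scalings and in genes that were not called. For LPS against control, median-ratio scaling gave log2 differences of 0.15 for Keap1, 0.37 for Gsr, 0.39 for Prdx1 and 0.10 for Nqo1, and quantile normalization 0.044 for Gsr and 0.11 for Nqo1. For 10 μM against LPS, median-ratio scaling gave −0.20 for Keap1, −0.11 for Txnrd1 and −0.005 for Nqo1, and quantile normalization −0.089 for Keap1 and −0.015 for Nqo1. For 10 μM against 1 μM, median-ratio scaling gave −0.059 for Keap1, −0.011 for Gsr and −0.031 for Nqo1, and quantile normalization −0.038 for Nqo1. For 10 μM against control, Nqo1 was at 0.10 with median-ratio scaling and 0.093 with quantile normalization.

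No pairing of the libraries by replicate number was seen, though with 3 libraries in a group a modest pairing could be missed. Deviations from the group means correlated at −0.165 to 0.153 for the same number and at −0.17 to 0.197 for different numbers. With the replicate number as a block the counts of the 10 genes called were 2 higher and 1 lower for LPS against control, 0 and 0 for 1 μM against LPS, 3 and 1 for 10 μM against LPS, 2 and 1 for 10 μM against 1 μM, and 5 and 0 for 10 μM against control, as without it. In the wider list LPS lowered 14 genes with a pseudocount of 1 and 15 with quantile normalization, against 20. It lowered 17 to 20 with 1 library left out. Of all genes, 27.7% were lower with that pseudocount, 19.6% with quantile normalization and 34.4% to 36.0% with 1 library left out, against 35.8%. For 10 μM against LPS the wider list had 6 lower genes with median-ratio scaling (12.4% of all genes), against 2 (9.44%). It had 4 with TPM (9.94%) or quantile normalization (11.6%). For 10 μM against control 5 were lower with median-ratio scaling (10.4% of all genes), against 12 (17.1%).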
